A study of Gallus gallus with 12 samples.

Results

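Male (ZZ) PGCs of the chicken were compared between E6.5, after they had settled in the gonad, and E2.5, while they circulated in the blood. Genes were kept when at least 2 of the 4 male libraries of these stages showed 1 TPM or more, which left 12357 of the 24356 genes in the deposited table, and 11999 genes were not tested. TPM corrects read numbers for the length of each gene and gives every library the same sum, so levels of different genes can be set side by side. The embryos were White Leghorn. At both stages cells were sorted by FACS on SSEA-1, a surface glycan of early chicken germ cells, with dead cells left out by propidium iodide. The E2.5 cells came from blood (cPGCs), and the E4.5 and E6.5 cells from gonads dissociated with TrypLE (gPGCs), so that stage, tissue of origin and dissociation cannot be told apart. Each stage had 2 libraries per sex, each from a separate pool of 6 to 14 embryos sexed by PCR, and amplified cDNA was made from little RNA with the SMART-seq v4 kit. The 2 E4.5 ZZ pools and the 4 female (ZW) pools of E2.5 and E6.5 are set beside the male values, and the series held 12 libraries in all.

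PGCs are the founder cells of sperm and eggs. In birds they leave the germinal crescent of the early embryo, enter the blood vessels, and colonise the forming gonads from the circulation, where they divide and later become spermatogonia or oocytes. While migrating they carry both germ cell RNA regulators such as *DAZL* and *DDX4* and pluripotency factors such as *NANOG*. Chicken PGCs depend on FGF, insulin and activin-type signals for growth in culture. In females the germ cells enter meiosis before hatching, and in males they stop dividing and enter meiosis after hatching.

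The 4 male libraries held 12099377 and 13749166 recovered reads on genes at E2.5 and 10670757 and 13671015 at E6.5. At this depth 3 reads on a gene of 1000 bases came to between 0.386 and 0.470 TPM, a limit that covers counting error only, since PCR copies of a molecule are not independent. Over the genes tested, Pearson's correlation of log2(TPM + 1), a description across genes, was 0.940 between the E2.5 pools and 0.972 between the E6.5 pools, against 0.926 to 0.943 between stages. The sorted cells carried germ cell transcripts in every pool. *DAZL*, an RNA-binding protein of germ cells, stood at 2222 and 2536 TPM at E2.5 and at 2123 and 2507 TPM at E6.5. *DDX4*, the germ cell RNA helicase also called CVH, stood at 680.3 and 317 TPM at E2.5 and at 339 and 405 TPM at E6.5. The groups overlapped for both genes.

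Blood and tissue RNA differed between the stages and between the pools. The hemoglobin genes took 4.45% and 1.59% of all TPM in the E2.5 pools and 0.0348% and 0.0321% in the E6.5 pools. The summed TPM of gonadal supporting and surface markers was 11.6 and 15.7 at E2.5 and 34.1 and 19.4 at E6.5. That of steroidogenic markers was 3.23 and 2.55 at E2.5 and 13.0 and 9.70 at E6.5, and that of mesenchymal markers 7.79 and 11.1 at E2.5 and 28.1 and 13.6 at E6.5. The mesonephric and renal markers went the other way, with 3.52 and 4.13 TPM at E2.5 and 2.59 and 0.609 TPM at E6.5. These sums rest on few genes. Of those in the table, 4 of 12 gonadal, 2 of 5 steroidogenic, 1 of 8 mesenchymal and 1 of 6 mesonephric and renal genes passed the filter. At E6.5 most of the steroidogenic sum was *CYP17A1* and most of the mesenchymal sum was *COL3A1*. Thrombocyte and leukocyte markers summed to between 9.17 and 26.8 TPM in the 4 pools and endothelial markers to between 10.1 and 27.8 TPM. Within E2.5, 31 tested genes were higher in pool 1 by 3 or more on the log2(TPM + 1) scale and 17 in pool 2, and within E6.5 these numbers were 16 and 5. At a difference of 1 or more, which is 2-fold, 1867 genes were higher in E2.5 pool 1 and 502 in E2.5 pool 2. Within E6.5 the numbers at this cut were 534 and 304. Values are given for some transcripts in which the E6.5 pools stood far apart, chosen after their values were seen. *AvBD10*, an antimicrobial peptide gene, had 2997 TPM in E6.5 pool 1 and 13.9 TPM in E6.5 pool 2, and the kidney transporter gene *SLC12A1* had 52.7 and 1.13 TPM. The HOX cluster genes, which pattern somatic tissue, summed to 37.3 TPM in E6.5 pool 1 and 0.683 TPM in E6.5 pool 2, against 1.44 and 0.991 TPM at E2.5, and none of the 37 HOX genes in the table passed the filter. How these transcripts bear on the stage differences was not tested.

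In males, 61 genes differed between the stages, and on TPM as deposited far more fell than rose. At E6.5, 13 genes were higher and 48 were lower, which are 0.105% and 0.388% of the genes tested. With median-of-ratios scaling, 67 genes were called higher and 70 lower. A larger set of genes had pools that did not overlap between stages and differed by 2-fold or more on log2(TPM + 1) as deposited. In it, 316 genes (2.56%) were higher and 1429 genes (11.6%) were lower. A gene was called when limma on log2(TPM + 1) gave a Benjamini-Hochberg adjusted p under 0.05 and the log2 fold change was at least 1 in either direction, and all fold changes are E6.5 over E2.5. At an unadjusted p under 0.05, 294 genes were 2-fold or more higher and 1260 lower. In all 61 called genes the groups did not overlap.

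Most of the genes that fell were above the median gene in cPGCs, and most of those that rose were below it. The median level of the 48 genes that fell was 78.6 TPM at E2.5 and 11.5 TPM at E6.5. The median level of the 13 genes that rose was 2.26 TPM at E2.5 and 26.9 TPM at E6.5. For all genes tested the median level was 16 TPM at E2.5 and 11.4 TPM at E6.5. The levels of the called genes come from the same pools that were used to call them. A gene that is low in cPGCs has little room to fall, so the medians of the called genes follow in part from the call. Whether level and direction are linked beyond that was not tested. The median log2 fold change over all genes tested was -0.27, with 4093 genes above 0 and 8264 below.

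The balance of rises and falls depended on how the libraries were scaled. With median-of-ratios scaling the median log2 fold change was -0.02, and 67 genes were called higher and 70 lower, among them the same 13 higher genes and 46 of the 48 lower genes. The counts also depended on single libraries. Without E6.5 ZZ pool 1, 0 genes were called higher and 7 lower by limma, with 109 and 730 genes 2-fold higher and lower at an unadjusted p under 0.05. Without E6.5 ZZ pool 2, 5 and 10 genes were called. Without E2.5 ZZ pool 1 the counts were 250 and 487, and without E2.5 ZZ pool 2 they were 263 and 1705. The p-values measure the spread between these pools only, and an exact two-sided permutation test of 2 against 2 pools cannot give a p under 0.333.

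**Figure D1:**
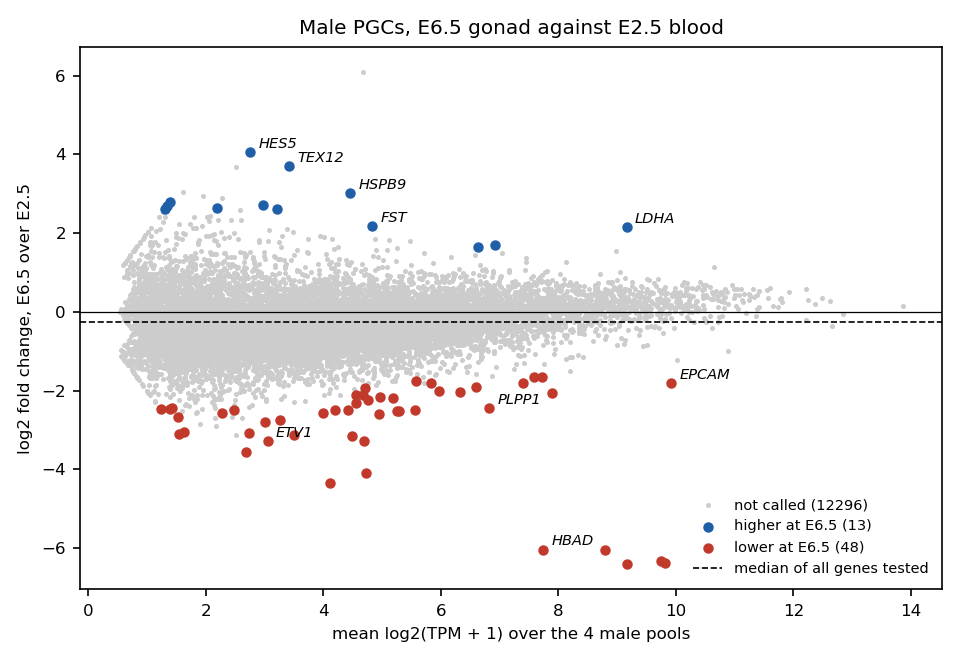
Each point is one of the 12357 genes tested in male PGCs, with its mean log2(TPM + 1) over the 4 pools on the x axis and its log2 fold change, E6.5 over E2.5, on the y axis. The 13 genes called higher at E6.5 are blue, the 48 called lower are red, and the dashed line is the median of all genes at -0.27, so that the cloud as a whole sits slightly below 0.

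Of the 13 genes that rose, 9 had a gene name and a length of 300 bases or more, and these included a Notch target, a synaptonemal complex gene, a small heat shock gene, an activin antagonist and a glycolytic enzyme. The largest rise was that of *HES5* (ENSGALG00000001141; GRCg6a chromosome 21, 1435552 to 1437201), a transcriptional repressor that is a classic target of Notch signalling. *HES5* had 1.76 and 0 TPM in the cPGC pools, 28.9 and 53.6 TPM in the E4.5 ZZ pools, and 22.9 and 30.9 TPM in the E6.5 ZZ pools. Behind these values were 16 and 0 reads at E2.5 and 208 and 341 reads at E6.5. The gene was thus low in both male blood pools, with 0 reads in pool 2, and higher in every male gonadal pool. Its log2 fold change was 4.06 (SE 0.56, adjusted p = 0.00937, limma). In females it had 3.48 and 0.656 TPM at E2.5 and 31.6 and 21.1 TPM at E6.5.

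*TEX12* (ENSGALG00000048129; chromosome 24, 6163550 to 6165951) encodes a part of the central element of the synaptonemal complex, the structure that joins paired chromosomes in meiosis. Its level was 3.64 and 0.889 TPM at E2.5 and 40.1 and 34.6 TPM at E6.5, with 3.54 and 17.1 TPM at E4.5. Both E6.5 pools were far above both E2.5 pools, and the mean TPM was 16.5-fold higher, with a log2 fold change of 3.69 (SE 0.51, adjusted p = 0.00937, limma). *HSPB9* (ENSGALG00000023818; chromosome 27, 7654604 to 7655550), a small heat shock protein gene that is testis-specific in mammals, had 8.39 and 5.34 TPM at E2.5 and 79.9 and 46.9 TPM at E6.5. It was highest at E4.5, with 375 and 171 TPM. Its mean TPM was 9.24-fold higher at E6.5 than at E2.5, with a log2 fold change of 3.01 (SE 0.42, adjusted p = 0.00982, limma).

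*LDHA* (ENSGALG00000006300; chromosome 5, 12754029 to 12780561), which encodes the lactate dehydrogenase subunit that turns pyruvate into lactate, was the most abundant of the genes that rose. It had 284 and 257 TPM at E2.5, 343 and 495 TPM at E4.5, then 1001 and 1459 TPM at E6.5. The rise came mostly after E4.5 and was 4.55-fold in mean TPM, with a log2 fold change of 2.16 (SE 0.29, adjusted p = 0.00937, limma). In females *LDHA* went from 259.5 and 217 TPM at E2.5 to 2339 and 1521 TPM at E6.5.

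*FST* (ENSGALG00000014908; chromosome Z, 16072541 to 16079179) encodes follistatin, a secreted protein that binds activin and keeps it from its receptors. It had 13.1 and 11.7 TPM at E2.5, 2.19 and 9.24 TPM at E4.5, then 51.7 and 68.9 TPM at E6.5. Both E4.5 pools lay below both E2.5 pools, and both E6.5 pools above them. The mean TPM was 4.88-fold higher at E6.5 than at E2.5, with a log2 fold change of 2.19 (SE 0.37, adjusted p = 0.0239, limma). *IL12A* (ENSGALG00000009574; chromosome 9, 22414329 to 22416411), a subunit of a cytokine of the interleukin family, had 1.40 and 2.88 TPM at E2.5 and 23.5 and 15.6 TPM at E6.5, with a log2 fold change of 2.72 (SE 0.49, adjusted p = 0.0332, limma).

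The other named genes that rose were *C8orf88*, from 2.38 and 3.17 TPM to 23.8 and 20.03 TPM, *TPPP*, a tubulin polymerization promoting protein, from 55.0 and 80.8 TPM to 242 and 196 TPM, and *CG-16*, from 49.3 and 61.1 TPM to 194 and 154 TPM. An unnamed gene on chromosome Z, ENSGALG00000051843, went from 0.594 and 1.11 TPM to 11.5 and 9.41 TPM. The remaining 3 genes that rose were short RNA genes with 0 reads in both cPGC pools and few reads at E6.5. *gga-mir-6686* had 3 and 7 reads, *gga-mir-202* had 2 and 5 reads, and ENSGALG00000039152 had 4 and 5 reads in the E6.5 pools. No fold is given for these 3 genes, because a fold against 0 reads has no upper limit and their reads at E6.5 were close to the limit of 3 reads.

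**Figure D2:**
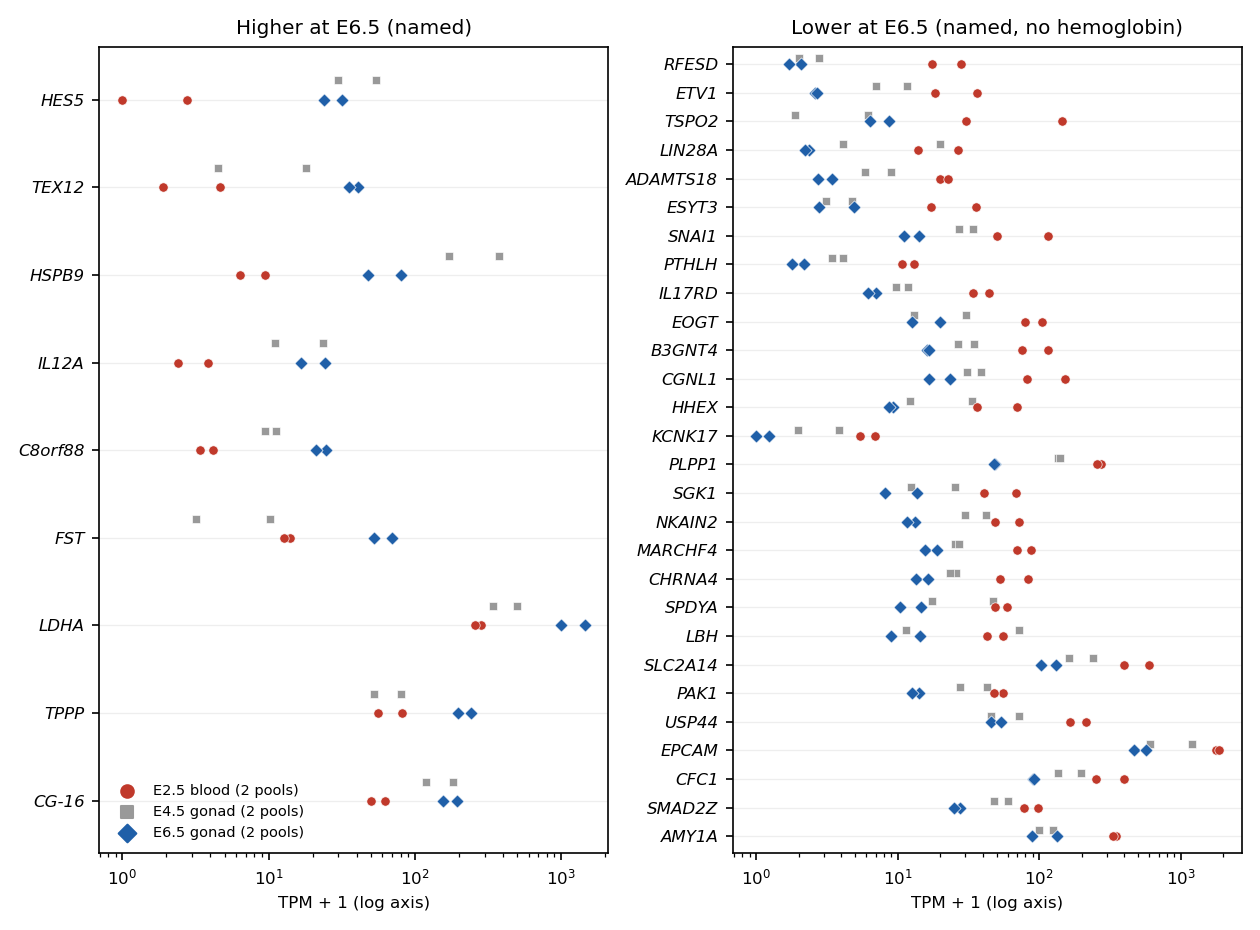
Each row is a named gene called in male PGCs, and each point is the level of 1 pool on a log axis of TPM + 1: red circles for E2.5 blood, grey squares for E4.5 gonad and blue diamonds for E6.5 gonad. The left panel shows the 9 named genes of 300 bases or more that rose and the right panel those that fell apart from hemoglobin, and in no row do the red and blue points overlap.

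The genes that fell furthest were those of hemoglobin, the oxygen carrier of red blood cells. Of the 7 hemoglobin genes in the table, 5 were tested and all 5 fell. *HBE* (ENSGALG00000035309; chromosome 1, 197275578 to 197277208) had 8551 and 3296 TPM in the cPGC pools, 33.0 and 53.7 TPM at E4.5, then 65.8 and 57.2 TPM at E6.5. *HBZ* (ENSGALG00000023740; chromosome 14, 12503627 to 12505300) had 13674 and 4284 TPM at E2.5 and 96.0 and 93.8 TPM at E6.5. The log2 fold changes of *HBE*, *HBBR*, *HBZ*, *HBA1* and *HBAD* were -6.41, -6.38, -6.32, -6.05 and -6.03, and that of *HBE* had an SE of 0.39 and an adjusted p of 8.93e-06 (limma). Hemoglobin genes are near copies of each other and only uniquely mapped reads were counted, so how the reads divide between them is uncertain. The cells at E2.5 were sorted from blood, and in such pools fewer red cells and less red cell RNA per cell cannot be told apart. *TSPO2*, a cholesterol-binding membrane protein known from erythroid cells, went with them in the pools, from 144 and 29.6 TPM to 5.43 and 7.75 TPM, with a log2 fold change of -3.15 (SE 0.60, adjusted p = 0.0405, limma). The erythroid membrane genes *EPB42* and *SLC4A1* were not called, with 13.1 and 4.4 TPM at E2.5 against 0.543 and 0.391 TPM at E6.5 for *EPB42* and a log2 fold change of -2.51 (adjusted p = 0.0925, limma) for *SLC4A1*.

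The other 43 genes that fell included *LIN28A*, genes of the FGF and Nodal pathways, adhesion genes and membrane enzymes. Hemoglobin differed most between the female E2.5 pools, at 16.5% and 0.257% of all TPM. In the female pool with 0.257%, 41 of these 43 genes were above both male E6.5 pools, against 42.3% of all genes tested, and 40 of them were 2-fold or more above the male E6.5 mean. The exceptions to the 41 were *TSPO2*, at 6.18 TPM in that female pool, and *RFESD*, at 0 TPM. The median excess of that female pool over the male E6.5 mean was 3.92-fold, against 5.55-fold for the male E2.5 mean. That female pool was also E2.5 blood and held more hemoglobin than the male E6.5 pools, which were at 0.0348% and 0.0321%. The 43 genes were picked for being higher at E2.5 in males, so all genes tested are not a like reference. The part of red cell RNA in these falls was not tested. With the hemoglobin genes removed and TPM rescaled, 10 genes were called higher and 37 lower, all of them among the original calls.

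*LIN28A* (ENSGALG00000036022; chromosome 23, 285905 to 297198), an RNA-binding protein that holds back the let-7 microRNAs and marks pluripotent and early germ cells, was the one pluripotency factor called. It had 25.8 and 12.9 TPM at E2.5, 19.1 and 3.11 TPM at E4.5, then 1.37 and 1.22 TPM at E6.5. The E6.5 values stood on 13 and 14 reads, and the mean TPM was 14.9-fold lower than in cPGCs (log2 fold change -3.07, SE 0.50, adjusted p = 0.0219, limma). *gga-mir-367*, a microRNA gene of a cluster known from pluripotent cells, fell from 49.1 and 37.0 TPM to 8.58 and 5.29 TPM, but these values stood on 23 and 21 reads at E2.5 and 4 and 3 reads at E6.5.

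In the list of 17 PGC pluripotency factors, 13 were tested, 1 was called lower and none was called higher. All 13 had log2 fold changes below 0, with a median of -1.34 against -0.27 for all genes, and the groups were apart by 2-fold or more in 8 of them, against 11.6% of all genes tested. With median-of-ratios scaling the median of the list was -1.06 and 12 of the 13 were below 0. *MYC*, a growth-promoting transcription factor, had 12.9 and 5.61 TPM at E2.5 and 2.13 and 0.292 TPM at E6.5 (log2 fold change -2.25, adjusted p = 0.115, limma). *PRDM14*, a transcription factor needed for germ cell specification in the mouse, had 13.0 and 4.41 TPM at E2.5 and 0.710 and 2.00 TPM at E6.5 (adjusted p = 0.151). The groups did not overlap in either gene, but neither passed the test.

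*NANOG* and *Pou5f3*, core pluripotency factors, overlapped between the stages. *NANOG* had 1024 and 328 TPM at E2.5 and 341 and 654 TPM at E6.5. *Pou5f3*, the chicken counterpart of *POU5F1*, had 497 and 158 TPM at E2.5 and 241 and 228 TPM at E6.5. In both genes E2.5 pool 1 was the highest pool and E2.5 pool 2 the lowest, so the spread within cPGCs was as wide as the whole range. *SALL4*, a zinc finger factor of stem cells and germ cells, had 65.9 and 89.2 TPM at E2.5 and 42.7 and 20.1 TPM at E6.5 (adjusted p = 0.148). *KIT*, the receptor for stem cell factor, had 73.1 and 55.6 TPM at E2.5 and 35.3 and 34.2 TPM at E6.5 (log2 fold change -0.86, adjusted p = 0.237, limma). In *SALL4* and *KIT* both E6.5 pools were below both E2.5 pools.

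**Figure D3:**
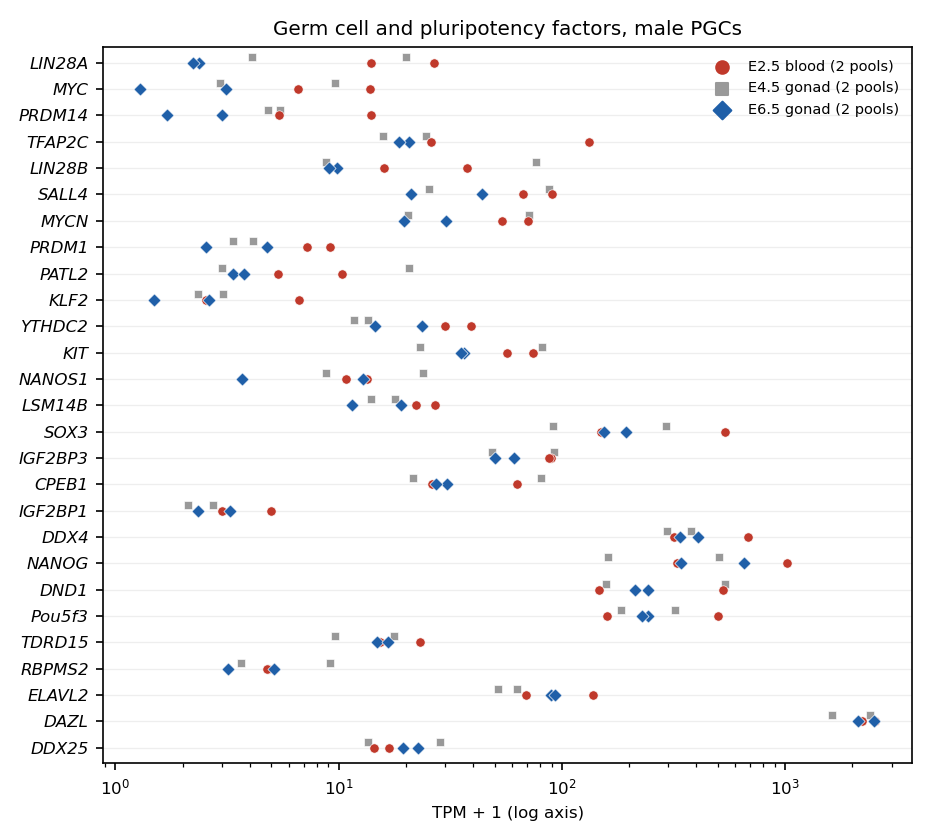
Each row is a tested pluripotency factor or germ cell RNA regulator, ordered by log2 fold change from the most negative at the top, and each point is 1 male pool on a log axis of TPM + 1 (red E2.5 blood, grey E4.5 gonad, blue E6.5 gonad). The upper rows, *LIN28A* to *MYCN*, have both E6.5 pools left of both E2.5 pools, while for *NANOG*, *DND1* and *Pou5f3* the E6.5 pools lie between the E2.5 pools.

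None of the 13 germ cell RNA regulators was called. Their median log2 fold change was -0.48 (-0.21 with median-of-ratios scaling), 1 was lower and apart by 2-fold or more (against 11.6% of all genes tested), and *DND1*, which protects germ cell mRNAs from microRNAs, had 526 and 147 TPM at E2.5 and 243 and 211 TPM at E6.5. Of 20 piRNA pathway genes, which silence transposons in germ cells, none was called. Their median was -0.06 as deposited and 0.21 with median-of-ratios scaling, so their direction depended on the scaling. *PNLDC1*, the exonuclease that trims piRNA ends, had 173 and 138 TPM at E2.5 and 294 and 348 TPM at E6.5 (log2 fold change 1.04, adjusted p = 0.132, limma). *PIWIL1*, a piRNA-binding Argonaute protein, had 304 and 269 TPM at E2.5 and 163 and 155 TPM at E6.5 (log2 fold change -0.84, adjusted p = 0.191). In these 2 genes the groups did not overlap, in opposite directions.

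Of the meiotic genes 1 rose in male gPGCs. Of 34 genes listed, 18 were in the table under those names and 14 were tested. The gene that rose was *TEX12*, none was called lower, and 11 of 14 were above 0. The median log2 fold change was 0.63 (0.89 with median-of-ratios scaling) against -0.27 for all genes. The groups were apart by 2-fold or more in 5 members that were higher and in 1 that was lower, against 2.56% and 11.6% of all genes tested. The lower one was *MEIOB*, with 1.82 and 2.20 TPM at E2.5 and 0.705 and 0.116 TPM at E6.5 (log2 fold change -1.12, adjusted p = 0.272, limma). *HORMAD1*, a protein of meiotic chromosome axes, had 30.2 and 17.4 TPM at E2.5 and 77.9 and 87.4 TPM at E6.5, and just missed the threshold (log2 fold change 1.8, SE 0.36, adjusted p = 0.0544, limma). Its paralog *HORMAD2* had 2.03 and 3.66 TPM at E2.5 and 10.7 and 8.49 TPM at E6.5 (log2 fold change 1.49, adjusted p = 0.188). *STRA8*, which is induced by retinoic acid at meiotic entry, had 26.4 and 23.6 TPM at E2.5 and 34.5 and 52.9 TPM at E6.5 (log2 fold change 0.75, adjusted p = 0.329). In these 3 genes both E6.5 pools were above both E2.5 pools. Under median-of-ratios scaling or limma-voom on the recovered reads, 2 genes of the list were called higher.

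Regulators of chromatin were not called. Of 11 DNA methylation writers and erasers 10 were below 0, with a median of -0.50, and of 21 Polycomb and histone modifiers 18 were below 0, with a median of -0.68 and the groups apart by 2-fold or more in 4, all lower, against 11.6% of all genes tested. *DNMT3B*, a de novo DNA methyltransferase, had 77.0 and 29.6 TPM at E2.5 and 26.1 and 19.0 TPM at E6.5 (log2 fold change -1.07, adjusted p = 0.27, limma). *KDM5B*, a histone demethylase, had 30.6 and 12.8 TPM at E2.5 and 10.7 and 5.43 TPM at E6.5 (adjusted p = 0.253). The groups did not overlap in either gene.

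Of 26 tested receptors of cell adhesion and migration, 1 fell and none rose. In all, 24 were below 0 (20 with median-of-ratios scaling), the median log2 fold change was -0.86, and the groups were apart by 2-fold or more in 10 of the 26, all lower, against 11.6% of all genes tested. *EPCAM* (ENSGALG00000008969; chromosome 3, 9260060 to 9446795), an epithelial adhesion protein also found on germ cells, had 1761 and 1857 TPM at E2.5, 606 and 1193 TPM at E4.5, then 466 and 568 TPM at E6.5. Its pools were close within E2.5 and within E6.5 but not within E4.5. Its mean TPM was 3.5-fold lower at E6.5 than at E2.5 (log2 fold change -1.81, SE 0.28, adjusted p = 0.0159, limma). *ITGA4*, the integrin subunit that binds VCAM1 and fibronectin, had 47.6 and 21.8 TPM at E2.5 and 7.51 and 6.05 TPM at E6.5 (log2 fold change -2.10, adjusted p = 0.0716). *GJA1*, the gap junction protein connexin, had 50.3 and 51.2 TPM at E2.5 and 17.8 and 12.8 TPM at E6.5 (adjusted p = 0.0697). *CXCR4*, the receptor for the chemokine that guides PGCs, had 266 and 309 TPM at E2.5 and 163 and 248 TPM at E6.5 (log2 fold change -0.51, adjusted p = 0.412). The groups did not overlap in these 3 genes, none of the 3 passed the test, and in *CXCR4* the difference was less than 2-fold.

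Further genes of cell shape and junctions were called outside that list. *SNAI1* (chromosome 20, 13790217 to 13793622), a zinc finger repressor of E-cadherin that acts in cells leaving an epithelium, fell from 115 and 49.1 TPM at E2.5 to 10.1 and 13.2 TPM at E6.5, with 33.1 and 26.2 TPM at E4.5 (log2 fold change -2.60, SE 0.43, adjusted p = 0.0239, limma). *CGNL1*, a protein of tight and adherens junctions, fell from 81.3 and 152 TPM to 22.6 and 15.7 TPM. *PAK1*, a kinase that acts on the actin cytoskeleton, fell from 54.2 and 46.8 TPM to 13.1 and 11.7 TPM. *ADAMTS18*, a secreted metalloprotease, fell from 18.8 and 21.8 TPM to 1.72 and 2.42 TPM. For all of these the E4.5 pools lay between the E2.5 and E6.5 pools. The 20 extracellular matrix genes tested had no call and a median of -0.76, and 15 were below 0. The groups were apart by 2-fold or more in 5 members that were lower and in 2 that were higher. For all genes tested these shares were 11.6% lower and 2.56% higher. *COL3A1*, a fibrillar collagen of mesenchyme, went against most of the list. It had 5.89 and 10.2 TPM at E2.5 and 26.0 and 12.5 TPM at E6.5.

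A transcription factor and an inhibitor of the FGF pathway fell. *ETV1* (ENSGALG00000035504; chromosome 2, 27273383 to 27337505), an ETS transcription factor induced by FGF, had 35.3 and 17.4 TPM at E2.5, 10.6 and 5.98 TPM at E4.5, then 1.63 and 1.72 TPM at E6.5. The 3 stages did not overlap, and the mean TPM was 15.8-fold lower at E6.5 (log2 fold change -3.27, SE 0.49, adjusted p = 0.0151, limma). *IL17RD*, a membrane protein that dampens FGF signalling, fell from 43.5 and 32.8 TPM to 6.01 and 5.19 TPM (log2 fold change -2.56, SE 0.41, adjusted p = 0.0196). In the list of FGF and insulin pathway genes 29 were tested, *ETV1* was the 1 call, 23 were below 0, and the median was -0.53. The groups were apart by 2-fold or more in 9 members that were lower and in 1 that was higher, against 11.6% and 2.56% of all genes tested. *FGF4*, a ligand, had 3.73 and 5.50 TPM at E2.5 and 0.268 and 0.220 TPM at E6.5 (adjusted p = 0.0722). The feedback inhibitors *SPRY2* and *DUSP6* were not called, with 71.1 and 67.2 TPM at E2.5 and 31.8 and 19.2 TPM at E6.5 for *SPRY2* (adjusted p = 0.104) and a log2 fold change of -1.62 (adjusted p = 0.189) for *DUSP6*.

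Among genes of activin and Nodal signalling, the antagonist *FST* rose, as given above, and a co-receptor and a signal transducer fell. *CFC1* (chromosome Z, 42432329 to 42437371), a co-receptor for Nodal, fell from 249 and 398 TPM at E2.5 to 89.7 and 90.4 TPM at E6.5 (log2 fold change -1.79, SE 0.31, adjusted p = 0.0274, limma). *SMAD2Z* (chromosome Z, 1515751 to 1557445), named in the table as a Z-linked *SMAD2*, the transcription factor that carries activin and Nodal signals, fell from 97.1 and 77.5 TPM to 26.5 and 23.9 TPM (log2 fold change -1.75, SE 0.33, adjusted p = 0.0405). *ID1*, a target of BMP signalling, had 456 and 534 TPM at E2.5, 305 and 238 TPM at E4.5, then 209 and 147 TPM at E6.5, and just missed the threshold (log2 fold change -1.49, adjusted p = 0.052). Its level was lower in each later stage without overlap. *CFC1* and *SMAD2Z* were not in the list of TGF-beta, BMP and activin genes and were grouped here after their calls were seen. Of the 29 tested members of that list, 1 was called higher (against 0.105% of all genes tested) and none lower. In all, 24 were below 0, against 8264 of the 12357 genes tested, and the median was -0.49. With median-of-ratios scaling 21 were below 0 and the median was -0.27, against -0.02 for all genes. The groups were apart by 2-fold or more in 5 members that were lower and in 2 that were higher. For all genes tested these shares were 11.6% lower and 2.56% higher.

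Wnt pathway genes had no call in the main test, although 28 of the 29 tested members were below 0 (26 with median-of-ratios scaling) and the median was -0.63. The groups were apart by 2-fold or more in 9 of them, against 11.6% of all genes tested. *WNT9A*, a ligand, had 23.3 and 17.0 TPM at E2.5 and 4.87 and 2.43 TPM at E6.5 (log2 fold change -2.22, adjusted p = 0.0679, limma), and *TCF7L2*, a transcription factor of the pathway, had 62.0 and 71.4 TPM at E2.5 and 22.9 and 16.9 TPM at E6.5 (log2 fold change -1.71, adjusted p = 0.0582). Under median-of-ratios scaling or limma-voom, 1 member of the list was called lower. Of 15 retinoic acid genes none was called, and *CYP26A1*, the enzyme that clears retinoic acid, had 20.2 and 8.23 TPM at E2.5, 58.6 and 29.5 TPM at E4.5, then 28.8 and 33.8 TPM at E6.5 (adjusted p = 0.23).

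Some enzymes and transporters of membranes, lipids and sugars were among the falls, grouped here after their calls were seen. *PLPP1* (ENSGALG00000014711; chromosome Z, 16804844 to 16861020), a surface phosphatase of lipid phosphates such as lysophosphatidic acid, had 271 and 256 TPM at E2.5, 134 and 139 TPM at E4.5, then 47.8 and 47.2 TPM at E6.5. Its pools lay close together at each stage, and its mean TPM was 5.55-fold lower at E6.5 (log2 fold change -2.45, SE 0.29, adjusted p = 0.00312, limma). *SLC2A14*, a glucose transporter of the facilitated type, fell from 591 and 396 TPM to 102 and 130.3 TPM (log2 fold change -2.06, SE 0.31, adjusted p = 0.0143). *B3GNT4* and *EOGT*, both of which add N-acetylglucosamine to glycans or proteins, fell from 115 and 74.6 TPM to 15.2 and 15.6 TPM and from 103 and 78.4 TPM to 11.7 and 18.9 TPM. *AMY1A*, an amylase gene, fell from 346 and 333 TPM to 88.3 and 132 TPM. *ESYT3*, a tether between the endoplasmic reticulum and the plasma membrane, fell from 34.5 and 16.2 TPM to 1.79 and 3.92 TPM. The fucosyltransferases and glycan genes, which include enzymes that can build the SSEA-1 epitope used for the sort, had no call among 12 tested and a median of -0.47.

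The other named falls of 300 bases or more were of varied function. *HHEX*, a homeobox repressor, fell from 69.1 and 35.6 TPM to 8.26 and 7.67 TPM (log2 fold change -2.50, SE 0.42, adjusted p = 0.0245, limma), and *LBH*, a transcription cofactor, fell from 54.8 and 42.1 TPM to 13.5 and 8.0 TPM. *USP44*, a deubiquitinase of the mitotic checkpoint, fell from 213 and 164 TPM to 45.0 and 52.9 TPM. *SPDYA*, an activator of cyclin-dependent kinases, fell from 47.5 and 57.8 TPM to 9.47 and 13.6 TPM. *SGK1*, a kinase induced by hormones and stress, fell from 67.6 and 39.4 TPM to 12.6 and 7.13 TPM, and *PTHLH*, a secreted parathyroid hormone-like peptide, from 12.1 and 9.70 TPM to 1.17 and 0.809 TPM. *RFESD* (chromosome Z, 57610727 to 57613816), a gene with a Rieske iron-sulfur domain, had the largest named fall after hemoglobin, from 26.9 and 16.5 TPM to 1.07 and 0.703 TPM (log2 fold change -3.56, SE 0.49, adjusted p = 0.00937). In females *RFESD* had 54.7 and 0 TPM at E2.5, with the 0 in the pool low in hemoglobin, and 1.71 and 4.04 TPM at E6.5. Whether its fall goes with that of hemoglobin was not tested. In these 7 genes the lower male E2.5 pool was still more than 2-fold above the higher male E6.5 pool. The membrane protein genes *CHRNA4*, *NKAIN2* and *KCNK17* and the ubiquitin ligase gene *MARCHF4* fell by 2.15, 2.25, 2.47 and 2.18 on the log2 scale. *KCNK17* stood on 105 and 94 reads at E2.5 and on 0 and 5 reads at E6.5.

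The other short RNA genes that fell stood on few reads. *gga-mir-138-1*, a microRNA gene, fell from 104 and 151 TPM to 35.9 and 25.5 TPM, on 64 and 113 reads at E2.5 and 22 and 19 reads at E6.5. *gga-mir-1613* had 2 and 3 reads at E2.5, *SNORD36*, a small nucleolar RNA gene, had 3 and 5 reads at E2.5, and both had 0 reads in the E6.5 pools, so no fold is given for them.

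Among unnamed genes, 11 fell, and the largest falls were those of a pair of long noncoding RNA genes. ENSGALG00000051562 (chromosome 2, 52035577 to 52066214) had 57.5 and 102 TPM at E2.5, 9.33 and 25.8 TPM at E4.5, then 2.30 and 3.49 TPM at E6.5 (log2 fold change -4.34, SE 0.44, adjusted p = 0.000771, limma). ENSGALG00000050997 (chromosome 1, 101814019 to 101815542) had 77.8 and 149 TPM at E2.5, 34.9 and 23.5 TPM at E4.5, then 6.94 and 4.17 TPM at E6.5 (log2 fold change -4.09, SE 0.43, adjusted p = 0.000926). Both were lower in each later stage without overlap, and each kept its call in 13 of 14 alternative settings. The table types 4 of the 48 genes that fell as long noncoding RNA, against 943 of the 12357 genes tested. It gives no type for 37 of the 48 and for 9575 of the 12357, so this is not a full classification. On chromosome Z, which holds 5.01% of the genes tested, 2 genes rose and 5 fell.

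Ribosomal protein, respiratory and mitosis genes had medians above 0 but below a 2-fold difference, with nearly every member on the same side. Of 61 cytosolic ribosomal protein genes, 60 were above 0, with a median log2 fold change of 0.49 and no call, and of 39 mitochondrial respiratory genes 37 were above 0, with a median of 0.40 and no call. Members of a list share the same pools, so these counts are not independent. The summed TPM of the ribosomal protein genes was 52732 and 68926 at E2.5 and 95870 and 74953 at E6.5 in males. In females it went the other way, from 76754 and 90799 to 66642 and 68333. The respiratory genes summed to 24954 and 34637.5 TPM at E2.5 and 40217 and 36070 TPM at E6.5 in males. Of 25 mitosis genes 24 were above 0, with a median of 0.53 and the groups apart by 2-fold or more in 4, all higher, against 2.56% of all genes tested. *SPC25*, a kinetochore protein, had 55.6 and 58.7 TPM at E2.5, 75.6 and 114 TPM at E4.5, then 167 and 149 TPM at E6.5, and narrowly missed the threshold (log2 fold change 1.45, adjusted p = 0.0581, limma). *UBE2C*, a ubiquitin-conjugating enzyme of mitotic exit, had 154 and 211 TPM at E2.5 and 523 and 363 TPM at E6.5 (adjusted p = 0.0987). In both genes every gonadal pool was above every blood pool. With median-of-ratios scaling, 3 mitosis genes were called higher.

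DNA replication genes and G1 regulators had medians below 0. Of 27 DNA replication genes 18 were below 0, with a median of -0.38. This was near the background, since 8264 of the 12357 genes tested were below 0, with a median of -0.27. With median-of-ratios scaling the median of the list was -0.10. *MCM2*, a subunit of the replicative helicase, had 115 and 35.9 TPM at E2.5 and 29.5 and 22.0 TPM at E6.5. Of 20 G1 regulators and CDK inhibitors 19 were below 0 (16 with median-of-ratios scaling), with a median of -0.46 (-0.21 with that scaling). Neither list had a call. Of 20 glycolysis enzymes *LDHA* alone was called, 11 were above 0, and the median was 0.11. *GAPDH* had 3704 and 4128 TPM at E2.5 and 5007 and 6763 TPM at E6.5 (log2 fold change 0.57, adjusted p = 0.375, limma), while *HK1*, a hexokinase that starts glycolysis, had 42.2 and 33.3 TPM at E2.5 and 13.9 and 10.8 TPM at E6.5 (log2 fold change -1.54, adjusted p = 0.107). Of 18 glycogen genes none was called, the groups were apart by 2-fold or more in 7, all lower (against 11.6% of all genes tested), and *PYGL*, a glycogen phosphorylase, had 61.1 and 13.1 TPM at E2.5 and 10.4 and 11.4 TPM at E6.5.

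Lists tied to the gonad or to handling of the cells had higher medians at E6.5 and no call. Of the gonadal sex genes 10 were tested, with a median of 0.67. *CYP17A1*, a steroidogenic enzyme, had 1.84 and 0.988 TPM at E2.5 and 9.44 and 7.91 TPM at E6.5 (log2 fold change 2.02, adjusted p = 0.0985, limma), and *AMH*, a hormone of Sertoli cells, had 0.166 and 0.501 TPM at E2.5 and 5.6 and 2.37 TPM at E6.5 (adjusted p = 0.134). Of 20 immediate early and stress genes, which respond within minutes to handling and dissociation, 12 were above 0, with a median of 0.43. *FOS* had 5.28 and 1.61 TPM at E2.5 and 18.5 and 8.90 TPM at E6.5 (adjusted p = 0.172), and *EGR1* had 0.627 and 2.07 TPM at E2.5 and 10.6 and 5.6 TPM at E6.5 (adjusted p = 0.128). In these 4 genes the groups did not overlap. Lipid genes (23 tested, median -0.38) and amino acid transporters (14 tested, median -0.11, or 0.15 with median-of-ratios scaling) had no call.

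**Figure D4:**
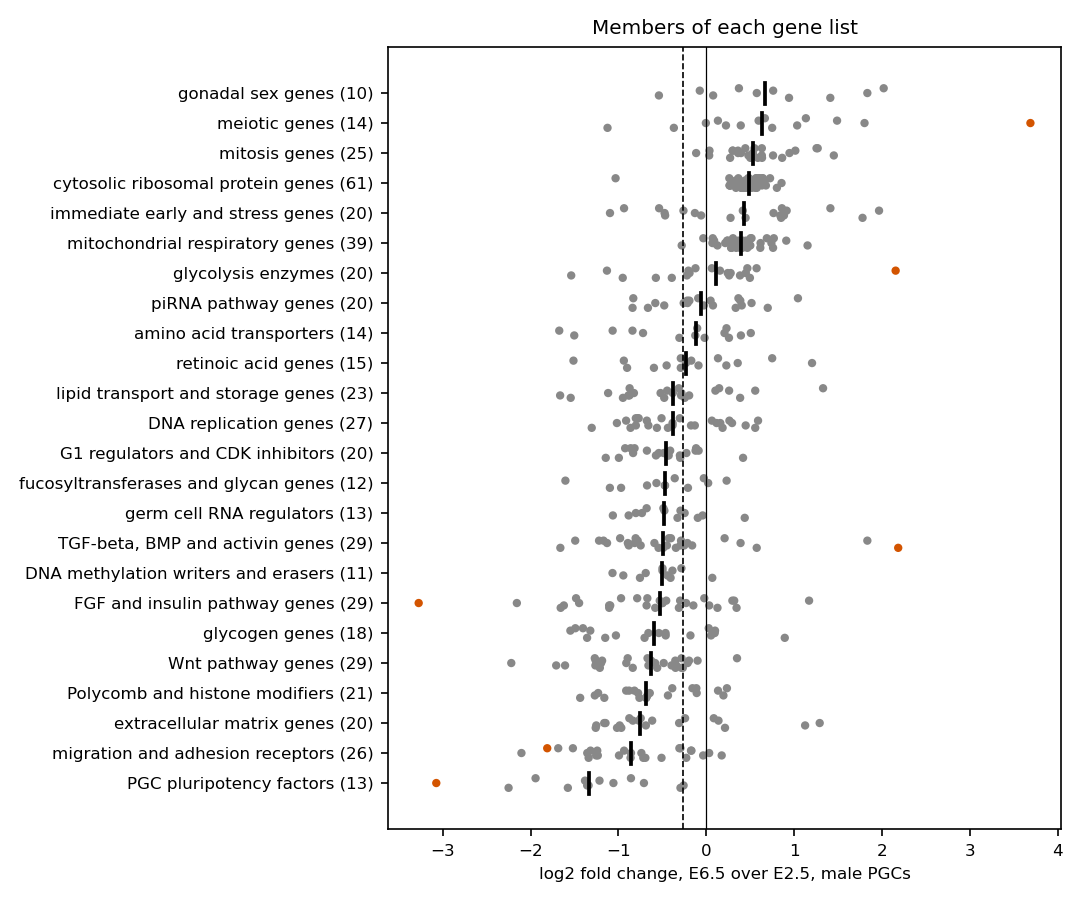
Each row is a gene list with the number of members tested, each point is a member's log2 fold change in male PGCs, E6.5 over E2.5, and the black bar is the list's median. Orange points are called genes and the dashed line is the median of all genes tested (-0.27). Only lists with 10 or more members tested are drawn, which leaves out the lists of cell type markers. Of the lists drawn, pluripotency factors have the lowest median (-1.34), while gonadal sex, meiotic, mitosis and ribosomal protein genes have medians between 0.49 and 0.67.

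The E4.5 pools were set beside the called changes, as a description only. For 40 of the 48 genes that fell, the E4.5 ZZ mean on the log2 scale lay between the other stages, and 35 of the 48 were past the midpoint of the fall by E4.5. For the genes that rose, 6 of 13 lay between the stages at E4.5 and 5 were past the midpoint. The median share of the change seen by E4.5 was 0.670 for the genes that fell and 0.364 for those that rose. The short RNA genes among the rises, *gga-mir-6686*, *gga-mir-202* and ENSGALG00000039152, had 0 TPM in all E2.5 and E4.5 ZZ pools. Their share was thus fixed at 0, which lowers the median for the rises, so the 2 medians do not show that rises came later. *RFESD* and *USP44* were close to their E6.5 level at E4.5, *TSPO2* was below it in both E4.5 pools, and *LBH* and *SPDYA* had 1 E4.5 pool near the E2.5 level and the other near the E6.5 level. The E4.5 pools differed widely from each other, with 7566925 and 11110477 reads on genes, and no test was run on these positions.

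Most genes called in males differed between the stages in the same direction in females. In females, 11 of the 13 genes that rose in males had a log2 fold change above 0 and 10 reached 1 or more, against 9.56% of all genes tested. The 10 included the short RNA genes *gga-mir-6686* (110 bases) and ENSGALG00000039152 (116 bases). In the E6.5 ZW pools these had 4.79 and 2.56 TPM and 1.13 and 1.21 TPM. On genes this short such values stand on few reads. All 48 genes that fell in males were below 0 in females and 46 reached -1 or less, against 10.6% of all genes tested. In the larger set of male genes that were apart by 2-fold or more, fewer did so: 49.1% of the 316 higher genes and 37.5% of the 1429 lower genes had a 2-fold difference in the same direction in females. For the called genes, the median log2 fold change was 1.55 in females and 2.64 in males for the rises, and -2.21 in females and -2.50 in males for the falls. Over all genes tested the male and female changes had a Pearson correlation of 0.493, which is a description across genes. The female libraries are separate pools of separate embryos, processed in the same study.

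*FST* was the clearest exception among the named rises. In females it had 5.97 and 6.74 TPM at E2.5 and 2.36 and 3.66 TPM at E6.5, so that both E6.5 ZW pools lay below both E2.5 ZW pools while the male pools went the other way. The difference between the changes was -3.08 on the log2 scale (SE 0.55), and the interaction of stage and sex had an adjusted p of 0.0587 (limma), just over the threshold. *IL12A* had 2.05 and 2.29 TPM at E2.5 and 3.53 and 3.94 TPM at E6.5 in females, well below the male E6.5 pools (interaction adjusted p = 0.27). *SNAI1* had 55.4 and 45.3 TPM at E2.5 and 34.3 and 15.6 TPM at E6.5 in females, a log2 fold change of -1.08 against -2.60 in males (interaction adjusted p = 0.406). None of the 61 genes called in males passed the interaction test, and 11 of them had an unadjusted p under 0.05 in it.

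**Figure D5:**
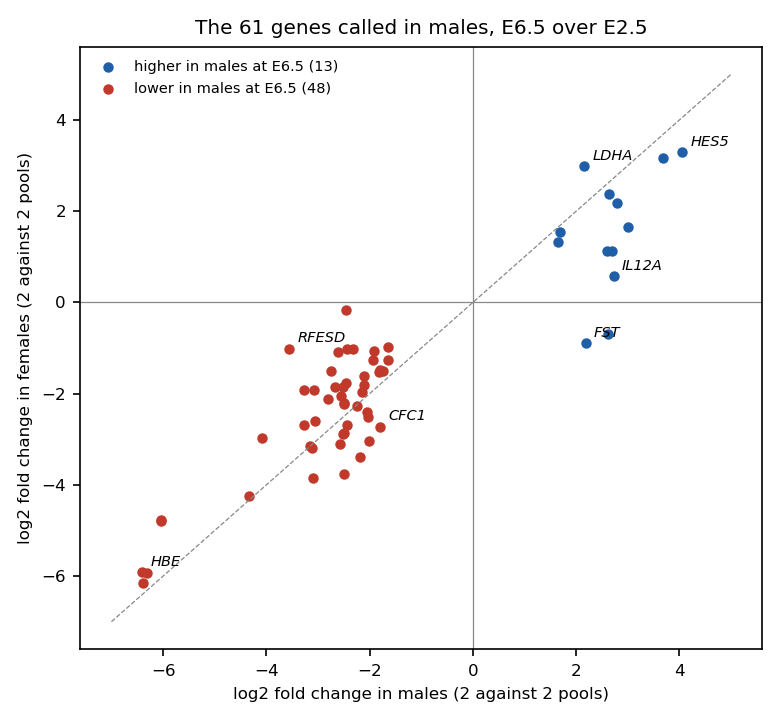
Each point is one of the 61 genes called in male PGCs, with its log2 fold change (E6.5 over E2.5) in males on the x axis and in females on the y axis, 2 against 2 pools each, and the dashed line marks equal change. All 48 genes lower in males (red) lie below 0 in females, and of the 13 genes higher in males (blue) *FST* and a microRNA gene lie below 0.

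Over the 13395 genes for which at least 2 of the 8 libraries showed 1 TPM or more, the stage change differed between the sexes in 20 genes (0.149%), and in all 20 it was more positive in females. None of the 20 was called in males. Values are given for a pair of them, chosen after their values were seen. *APOA1*, the main protein of high-density lipoprotein, had 7.55 and 1.25 TPM at E2.5 and 12.6 and 7.90 TPM at E6.5 in males, and 2.05 and 1.5 TPM at E2.5 and 398 and 3022 TPM at E6.5 in females. *RGN*, a calcium-binding protein of liver and kidney also called regucalcin, had 55.1 and 52.3 TPM at E2.5 and 45.9 and 52.5 TPM at E6.5 in males, and 1181 and 6262 TPM in the female E6.5 pools. The male pools of both stages were thus near each other in *RGN*, and the whole difference lay in the female E6.5 pools. The summed TPM of the hepatic and yolk sac markers was 17.6 and 15.3 in the male and 460.5 and 3814 in the female E6.5 pools. Most of the female sum was *APOA1* itself, so the sum is not separate from the genes called. The mesonephric and renal markers summed to 2.59 and 0.609 TPM in the male and 6.85 and 40.5 TPM in the female E6.5 pools. The part of these markers in the result was not tested. The number of genes whose stage change differed between the sexes depended on each library. It was 166 without E6.5 ZW pool 1 and 57 without E2.5 ZZ pool 2, 2 without E2.5 ZZ pool 1 or E6.5 ZZ pool 1, and 1 without E6.5 ZW pool 2. It was 0 by limma without E6.5 ZZ pool 2, E2.5 ZW pool 1 or E2.5 ZW pool 2, with 1241, 1336 and 1253 genes at an unadjusted p under 0.05 and a 2-fold difference, against 1279 such genes with all libraries.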

How the data were processed

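The study sequenced 12 libraries, of which the 4 male libraries of E2.5 and E6.5 carry the comparison. Per the labels and the submitters' processing notes, reads were trimmed with Trimmomatic 0.39 and with Trim Galore 0.6.6 and cutadapt 3.1, mapped to GRCg6a with STAR 2.7.3a and counted per gene with featureCounts 2.0.1 from uniquely mapped reads. The authors deposited TPM for 24356 genes with gene lengths and positions. How TPM was made from the counts is not given in the sources used here. Low TPM values times gene length were whole multiples of 1 step within 0.1 of a read in 100% of the values checked up to 20 reads, which gave the reads per gene and the totals of 10670757 to 13749166 reads in the 4 libraries.

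Stages were compared on log2(TPM + 1) by limma 3.58.1 (R 4.3.3), using eBayes with its trend option, for genes that at least 2 libraries held at 1 TPM or more, with Benjamini-Hochberg adjustment over all of them. Calls needed an adjusted p under 0.05 and a log2 fold change of at least 1 in either direction. The added 1 shrinks fold changes of low genes, so folds of mean TPM are given beside them. The difference between the sexes was an interaction term on 8 libraries, 2 for each stage and sex. A 3-read floor is given for detection. The procedure was tested on simulated data of 12357 genes, of which 200 were changed by 3 on the log2 scale. At a simulated dispersion (spread between libraries) of 0.02 and 0.1, 200 and 199 of the changed genes were called. Of the unchanged genes 20 and 30 were called as well. Only 3 of the 13 higher and 15 of the 48 lower genes called in males reached a change of 3. Recovery of smaller changes was thus not tested. Plots were made in Python 3.11.15 (matplotlib 3.10.9).

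The rule for named genes took, among named genes of 300 bases or more, the 12 largest called rises and falls with a mean of 5 TPM or more in the higher stage, the 5 most abundant calls per direction, and members of the gene lists. The other named calls are given as well, so that the named part of the called set is complete, and of the unnamed falls only the pair with the largest change is described. Of each list, only members found in the table by name and passing the filter were tested. The members and lists were chosen with earlier results of these data known. Alternatives were another pseudocount (0.1), other filters and scalings, removal of hemoglobin or short genes, one fit over all 12 libraries, limma-voom on recovered reads, other fold thresholds, the replicate number as a block, and each library left out in turn, where the pool left alone is taken to vary like the other pools. Sequences and W-linked sex markers were not analysed here.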

Additional observations from a re-analysis of the deposited data

Results flagged for a closer look

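The stage change differed between females and males in 20 genes by the interaction of stage and sex (limma, Benjamini-Hochberg adjusted p under 0.05), and each was the larger in females. The difference of the log2 fold changes, females minus males, was 7.46 for *CYP2AC1*, 7.30 for *APOA1*, 7.24 for *MIOX*, 6.65 for *UPB1*, 6.31 for *PDZK1IP1*, 6.29 for *ACSM3*, 6.17 for *SLC2A11L1*, 5.98 for *UGT1A1*, 5.94 for *VDHAP*, 5.82 for *RGN*, 5.76 for *APOC3*, 5.67 for *CYP4B7*, 5.63 for *G6PC*, 5.26 for *SLC23A1* and 4.79 for *CLRN3*. For the 5 genes without a name the differences were 6.61, 6.34, 5.99, 5.75 and 5.23. In every one of the 20 genes the values were highest in the E6.5 ZW pools, and in each of them E6.5 ZW pool 2 was above E6.5 ZW pool 1. The smallest adjusted p was 0.0258, and 1440 of the 13395 genes tested had an unadjusted p under 0.05.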

How the results depend on the processing

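Counts of calls are given as higher, lower and differing between the sexes, against 13, 48 and 20 in the main test. They were 3, 15 and 20 at a log2 fold threshold of 3, 5, 32 and 0 with a pseudocount of 0.1, 0, 5 and 0 with no filter on low values (245, 1043 and 1239 at an unadjusted p under 0.05 and a 2-fold difference, against 294, 1260 and 1279 in the main test), and 21, 87 and 42 with a mean of 5 TPM or more. They were 67, 70 and 11 with median-of-ratios scaling, 10, 37 and 14 without hemoglobin genes, and 23, 104 and 73 without genes under 300 bases. They were 12, 53 and 0 with limma-voom on the recovered reads (953 by that unadjusted count for the last), and 0, 3 and 0 when 1 fit held all 12 libraries (unadjusted 186, 712 and 711). With the replicate block they were 30, 85 and 86, and same-numbered male pools had a correlation of deviations of -0.107, so they share only a number. A crossed replicate block, chosen after seeing the data, gave 84 higher and 264 lower. Leaving out each library in turn gave 0 to 263 higher, 7 to 1705 lower and 0 to 166 differing between the sexes.

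No called gene changed direction in any of the 14 settings in which it was tested. In all called genes the groups did not overlap, so leaving out a pool could not reverse a direction. The call itself was lost in 58 called genes with all 12 libraries in 1 fit, and in 56 with no filter on low values. Some uncalled germ cell genes did change direction. *NANOG* had a log2 fold change of 0.53 without E2.5 ZZ replicate 1 and 0.18 without E6.5 ZZ replicate 1, and *Pou5f3* 0.57 without E2.5 ZZ replicate 1 and 0.027 with median-of-ratios scaling. *DAZL* had 0.24 with median-of-ratios scaling, 0.049 with limma-voom, 0.055 without E2.5 ZZ replicate 2 and 0.079 without E6.5 ZZ replicate 1. *DDX4* had 0.22 and *DND1* 0.63 without E2.5 ZZ replicate 1. Over the libraries left out in turn, the lowest values were -1.11 for *NANOG*, -1.08 for *Pou5f3*, -0.16 for *DAZL*, -0.88 for *DDX4* and -1.21 for *DND1*. The cause was not tested. With 2 pools a group, genes near 3 reads cannot be compared.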

Other observations

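Some transcripts stood apart in a single male pool and were not called. They were chosen after their values were seen. In E6.5 ZZ pool 1 and pool 2, *FXYD2*, a regulator of the sodium pump in kidney, had 233 and 0.770 TPM, and *SPP1*, the matrix protein osteopontin, had 89.8 and 0.906 TPM. In females at E6.5 *FXYD2* had 64.2 and 362 TPM and *SPP1* 26.9 and 333 TPM. *AvBD10* had 8.53 and 0 TPM at E2.5 in males, with a log2 fold change of 6.10 (SE 1.73, adjusted p = 0.139, limma), the largest rise among all genes tested and not a call. Within E2.5, *HMOX1*, the heme-degrading enzyme, had 125 TPM in pool 1 and 5.21 TPM in pool 2, against 12.3 and 15.1 TPM at E6.5. Differences between the pools of one stage that reached 3 on the log2 scale were found in 48 genes at E2.5 and in 21 genes at E6.5. Among the 61 called genes the median difference between pools was 0.40 at E2.5 and 0.30 at E6.5, and the largest was 2.24 and 0.87.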
